A study of Mus musculus with 12 samples.

Results

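The monocyte genes described here are Ly6c2, Chil3, Plac8, Vcan and F13a1, which mark classical monocytes, and Ace and Nr4a1, which mark nonclassical monocytes. They were chosen by symbol from the expression table, so 7 of its 55401 genes are members, and all 7 were among the 15504 genes that passed the filter on low values. The table covers 12 orthotopic breast tumors, 3 in each of 4 treatment groups. All tumors grew from 4T1 cells, a mouse mammary carcinoma line, injected into young adult Balb/c mice, and treatment began at a tumor volume of 100 mm3. Control mice received control IgG. The other mice received IL-10-Fc, which is interleukin-10 joined to an antibody Fc part, aCSF1R, an antibody that blocks the colony-stimulating factor 1 receptor, or BF10, a fusion of a CSF1R-blocking antibody with human interleukin-10. The labels of all 12 tumors give 6 doses and the study's text gives another number, so the dose count at harvest is uncertain. The host mice kept their own immune system, and the RNA came from pieces of whole tumor, so that fewer cells of a type and less RNA per cell cannot be told apart.

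Classical monocytes carry the surface protein Ly6C and the chemokine receptor CCR2, leave the bone marrow, enter inflamed tissue and tumors, and can become macrophages there. Nonclassical monocytes are low in Ly6C, patrol the vessel wall, depend on the nuclear receptor NR4A1 and on signalling through CSF1R, and largely derive from classical monocytes. None of these transcripts is limited to monocytes in a tumor. Chil3 and Plac8 are also made by neutrophils and their precursors, Vcan by fibroblasts, F13a1 by macrophages and megakaryocytes, Ace by endothelium, and Nr4a1 by many cells upon stimulation.

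Ly6c2 has a near-identical neighbour, Ly6c1, which endothelial cells express. Ly6c2 lies at chr15:75108158-75111970 and Ly6c1 at chr15:75044018-75048830, both on the minus strand of GRCm38. Their coding sequences are equally long, 393 bases, and differ at 9 bases, which is an identity of 97.7%. The first 150 coding bases of each GENCODE transcript are shown because 6 of the 9 differences, in capitals, fall there, while the longest run without a difference is 188 bases.
Ly6c2: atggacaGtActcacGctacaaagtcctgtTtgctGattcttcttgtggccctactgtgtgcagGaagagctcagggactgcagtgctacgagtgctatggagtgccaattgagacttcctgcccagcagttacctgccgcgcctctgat
Ly6c1: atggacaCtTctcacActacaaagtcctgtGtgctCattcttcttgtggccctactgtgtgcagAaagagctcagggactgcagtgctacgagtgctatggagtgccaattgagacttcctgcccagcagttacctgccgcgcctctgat
Of the 748 windows of 75 bases, the read length of the study, along the longest Ly6c2 transcript, 164 (21.9%) also occurred in Ly6c1, so the Ly6c2 values are uncertain to the extent that reads were divided between the pair. Chil3 (chr3:106147554-106167564, minus strand) shared 208 of 1465 windows (14.2%) with Chil4 or Gm6522. The other 5 members shared no window with another gene. Their positions are Plac8 at chr5:100553725-100572245, Vcan at chr13:89655312-89742509 and F13a1 at chr13:36867178-37050244 on the minus strand, and Ace at chr11:105967945-105989964 and Nr4a1 at chr15:101254269-101274795 on the plus strand.

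Values are TPM, a length-corrected share of a library's transcripts, rescaled from the deposited FPKM values so that each library sums to 1000000. Before rescaling, 5 libraries (BF10 replicate 6, aCSF1R replicate 8, control IgG replicates 4 and 7, and IL-10-Fc replicate 7) summed to between 782919 and 921581 and are called higher-sum below, whereas the other 7 summed to between 609695 and 648413 and are called lower-sum. These sets cross the treatments unevenly, with 2 of 3 control libraries higher-sum against 1 of 3 in each other group. With treatment held constant, 59.2% of tested genes differed between the sets by the rule used throughout (limma on log2(TPM + 1), Benjamini-Hochberg adjusted p below 0.05 and at least 1.5-fold), with a median over all genes of -0.68 on the log2 scale in higher-sum relative to lower-sum libraries. Group comparisons are therefore also given with the library set as a term of the model. What the sets stand for is not stated in the labels, and their part in each result was not tested beyond this term. The sets are defined by the same sum that each value is divided by. The rescaling therefore raises values less in higher-sum libraries, and its part in the differences between the sets was not tested. The study's methods state how many reads were made per sample, but the files hold no counts, so the reads behind each value are not known here. The labels call the libraries separate tumors and say no more of how they were collected, so p-values measure the spread between these samples.

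None of the 7 monocyte genes passed the threshold in any of the 6 comparisons between groups. F13a1, lower in every aCSF1R tumor than in every other tumor, came nearest. With limma across all genes, the share of all tested genes that passed was 0% for BF10 versus control IgG, 0.00645% for IL-10-Fc versus control IgG, 0.568% for aCSF1R versus control IgG, 0.735% for BF10 versus aCSF1R, 0% for BF10 versus IL-10-Fc and 0.542% for IL-10-Fc versus aCSF1R. At an unadjusted p below 0.05 these comparisons held 234, 224, 537, 661, 42 and 552 genes, in the same order, and F13a1 was the only member among them, in the 3 comparisons that involve aCSF1R. Those 3 comparisons share the aCSF1R tumors, just as the 3 comparisons with control IgG share the controls.

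**Figure D1:**
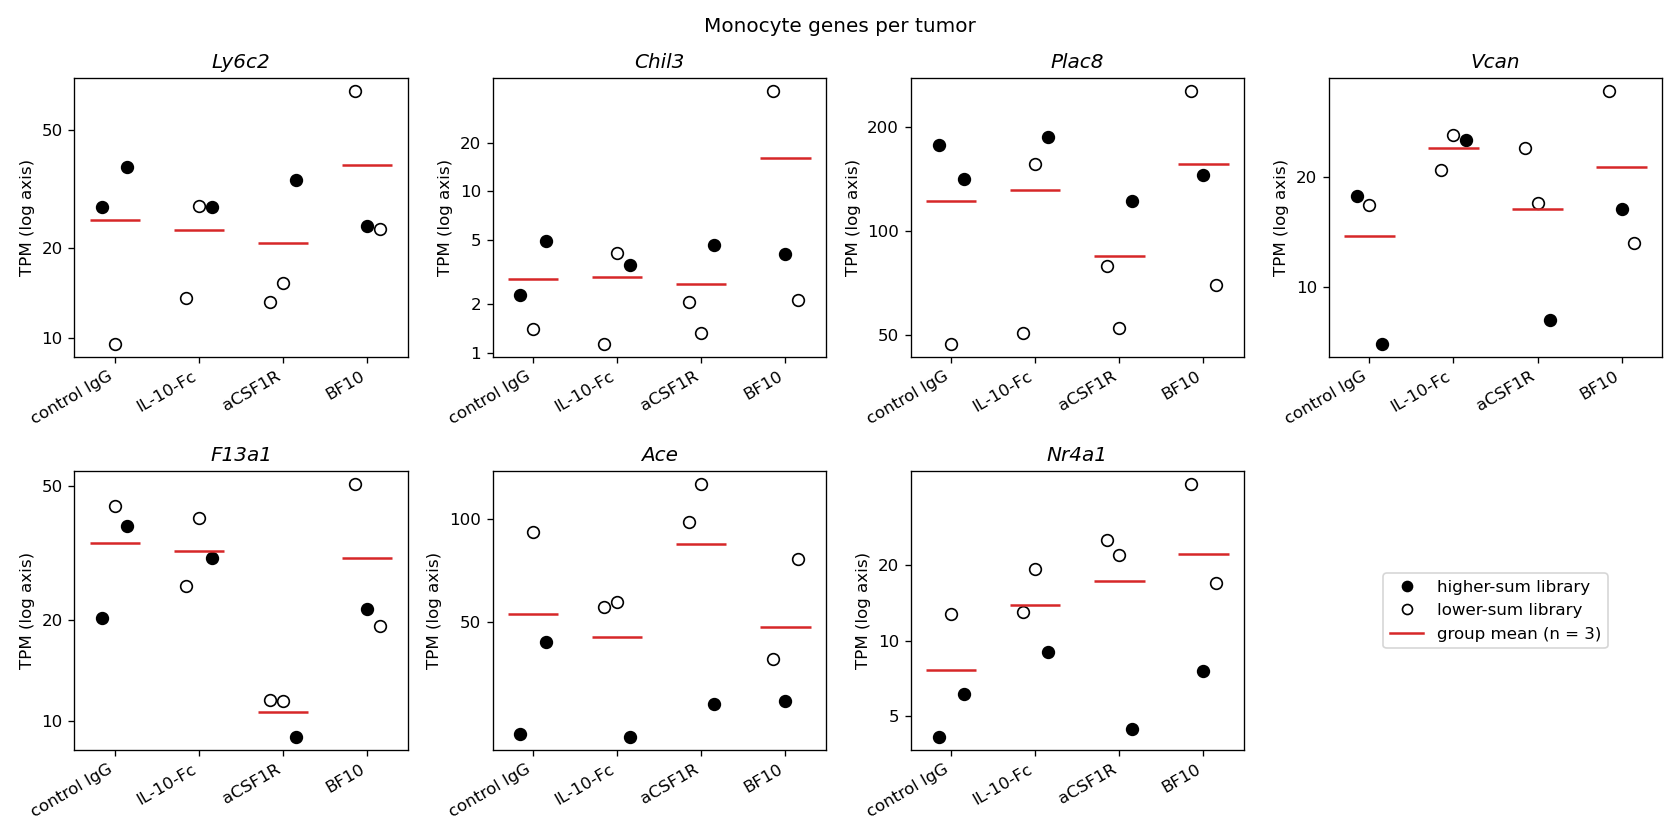
TPM (log axis) of the 7 monocyte genes in each of 12 tumors, by treatment group, with higher-sum libraries filled, lower-sum libraries open and the mean of 3 tumors as a red line. F13a1 is lowest in the 3 aCSF1R tumors, Chil3 stands at 41.6 in 1 BF10 tumor and at 4.90 or less elsewhere, and for Nr4a1 the filled points lie at or below 9.02 and the open points at or above 12.8.

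F13a1 encodes the A chain of coagulation factor XIII, a transglutaminase that crosslinks fibrin. It measured 20.3, 43.7 and 38.0 TPM in control IgG tumors (replicates 4, 5 and 7) and 11.5, 11.4 and 8.91 TPM in aCSF1R tumors (replicates 4, 6 and 8). It measured 25.3, 40.3 and 30.5 TPM under IL-10-Fc (replicates 2, 4 and 7) and 50.8, 21.6 and 19.2 TPM under BF10 (replicates 3, 6 and 7). The aCSF1R tumors thus lay below all 9 other tumors, whereas the control IgG, IL-10-Fc and BF10 groups overlapped one another. The share of all genes set apart from all 9 others in this way was not counted. Group means were 34.0 ± 12.2 TPM for control IgG, 32.0 ± 7.64 for IL-10-Fc, 30.5 ± 17.6 for BF10 and 10.6 ± 1.48 for aCSF1R (SD, n = 3 each).

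On the log2(TPM + 1) scale, F13a1 was -1.53 in aCSF1R relative to control IgG (SE 0.40, 95% interval -2.42 to -0.64), which is 2.89-fold lower, with an unadjusted p of 0.00303 but a limma adjusted p of 0.270. It was 1.31 in BF10 relative to aCSF1R (SE 0.40, adjusted p 0.425) and 1.49 in IL-10-Fc relative to aCSF1R (SE 0.40, adjusted p 0.308). With the library set as a term the difference from control was -1.66 (SE 0.35) and passed, with a limma adjusted p of 0.0351, among 2.01% of all genes. The same term left BF10 versus aCSF1R (limma adjusted p 0.0813, against 2.82% of genes passing) and IL-10-Fc versus aCSF1R (limma adjusted p 0.0520, against 2.13%) outside the threshold. Leaving out each library in turn while keeping the term, F13a1 passed against control in 5 of 12 fits (without BF10 replicate 3 or 7, control IgG replicate 4, or IL-10-Fc replicate 2 or 7). The call was lost without any of the other 7 libraries, with limma adjusted p-values up to 0.243, while the value stayed between -1.90 and -1.49.

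F13a1 was also the single member whose groups did not overlap in each comparison with aCSF1R, where 5.28% (control IgG), 5.91% (BF10) and 7.49% (IL-10-Fc) of all genes did not overlap. The genes whose levels were most like F13a1 over the 12 tumors were Abca9, a lipid transporter family member (Pearson r = 0.95, also 0.95 with the library set removed), Marcksl1 (r = 0.95) and Dok2, a docking protein of blood cells (r = 0.92). Abca9 was low, with a mean of 1.29 TPM. Macrophage markers moved beside it. The summed TPM of 8 such markers (Adgre1, Csf1r, Mertk, Cd68, Mrc1, C1qa, C1qb and C1qc) ranged from 72.5 to 246 in aCSF1R tumors and from 1338 to 2137 in the 9 others. Of the 8, 5 passed as lower in aCSF1R than in control IgG, where 0.568% of all genes passed. With the library set as a term 7 passed, against 2.01% of all genes. The r of F13a1 with these 8 genes ran from 0.56 to 0.86, and from 0.82 to 0.88 with the set removed. Some further monocyte genes were as close. With the set removed, its r with 12 classical ones ran from -0.40 (Ly6c1) to 0.92 (Lyz2), with a median of 0.57. With 8 nonclassical ones it ran from -0.53 to 0.92 (Gngt2), with a median of 0.60. Without removal these medians were 0.56 and 0.60. Pf4, a platelet and megakaryocyte chemokine also made by macrophages, fell from 164 ± 43.3 to 25.7 ± 10.1 TPM in aCSF1R tumors (SD, n = 3 each, limma adjusted p 0.0105), and Ppbp, another platelet chemokine, followed F13a1 as well (r = 0.78, 0.81 with the set removed), with 2.42 ± 1.24 TPM in control IgG and 0.406 ± 0.252 TPM in aCSF1R (SD, n = 3 each). The other platelet and megakaryocyte genes on the list did not share this pattern. Itga2b, an integrin chain of both, averaged 2.08 ± 1.00 TPM in control IgG and 4.39 ± 1.76 TPM in aCSF1R (SD, n = 3 each), and Gp9 stayed at or below 0.297 TPM in all 12 libraries, too low to be tested. Pf4 was the only gene of the 4 that passed. The parts of monocytes, macrophages, platelets and megakaryocytes in the F13a1 level were not tested.

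**Figure D2:**
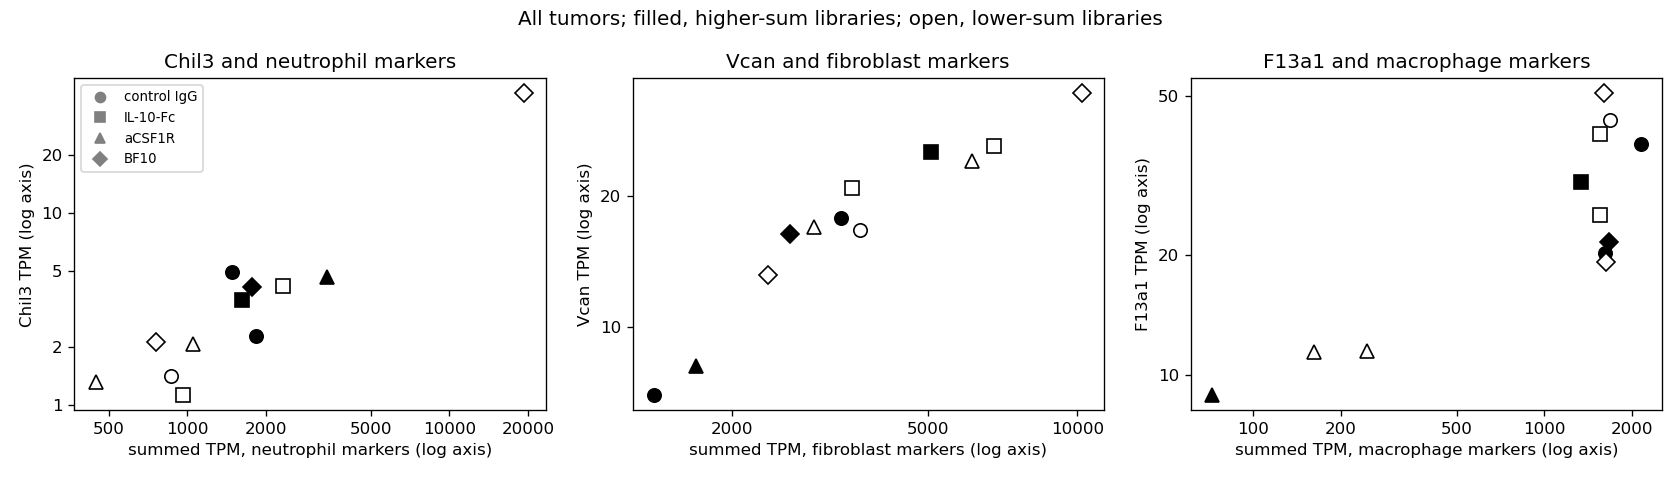
Level of 3 monocyte genes (TPM, log axes) against the summed TPM of a marker list in each of 12 tumors, with symbols for the 4 groups and filled symbols for higher-sum libraries. The highest Chil3 and the highest neutrophil sum (19273) fall in the same BF10 tumor, Vcan rises with the fibroblast sum, and the 3 aCSF1R tumors lie apart at low F13a1 and a macrophage sum of 246 or less.

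Ly6c2 encodes a GPI-anchored protein of the Ly6C antigen. It measured 27.4, 9.51 and 37.6 TPM in control IgG tumors, 13.6, 27.6 and 27.6 under IL-10-Fc, 13.2, 15.3 and 34.0 under aCSF1R and 67.4, 23.8 and 23.2 under BF10, in the replicate order given for F13a1. Every group overlapped every other, and BF10 replicate 3 was highest. Means ran from 20.8 ± 11.5 TPM in aCSF1R to 24.8 ± 14.2 in control IgG and 38.2 ± 25.3 in BF10 (SD, n = 3 each), with IL-10-Fc at 22.9 ± 8.09, and no neighbours in this order differed beyond their spread. The log2 difference between aCSF1R and control IgG was -0.17 with a 95% interval from -1.47 to 1.13, an interval that holds changes of more than 1.5-fold in both directions. With the library set as a term the same difference was 0.05.

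Ly6c1 stood higher than Ly6c2 in all 12 tumors. Ly6c1 averaged 115 ± 73.0 TPM in control IgG, 163 ± 34.9 under IL-10-Fc, 175 ± 83.8 under aCSF1R and 173 ± 18.8 under BF10 (SD, n = 3 each). The ratio of Ly6c2 to Ly6c1 lay between 0.101 and 0.437, with the highest value in BF10 replicate 3 and the next, 0.372, in control IgG replicate 7. In the 3 aCSF1R tumors it held a narrow range, 0.103 to 0.125, which the ranges of IL-10-Fc (0.101 to 0.180) and BF10 (0.124 to 0.437) overlapped. The control IgG range, 0.141 to 0.372, lay above it, and this ratio was not tested.

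Plac8 encodes a small cysteine-rich protein abundant in myeloid cells and plasmacytoid dendritic cells. It had the highest mean of the 7 genes, 124 TPM over all tumors. It measured 177, 46.8 and 142 TPM in control IgG tumors, 50.4, 156 and 188 under IL-10-Fc, 79.1, 52.3 and 122 under aCSF1R and 254, 145 and 69.5 under BF10. The groups overlapped throughout, with means of 122 ± 67.5, 131 ± 71.9, 84.6 ± 35.4 and 156 ± 92.9 TPM in that order (SD, n = 3 each). Plac8 was -0.40 in aCSF1R relative to control IgG (log2, 95% interval -1.86 to 1.05, limma adjusted p 0.893). Held at equal treatment, Plac8 was 0.96 higher on the log2 scale in higher-sum than in lower-sum libraries (limma adjusted p 0.0413), against the median of -0.68 for all genes.

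Ly6c2 and Plac8 varied alike across tumors. Plac8 was among the 3 genes most like Ly6c2 (r = 0.87 over 12 tumors, 0.85 with the library set removed, 0.83 without BF10 replicate 3), after Rgs18 (r = 0.89) and Serpinb1a (r = 0.87), an inhibitor of neutrophil proteases. The genes most like Plac8 were Il1r2, the decoy receptor for interleukin-1 (r = 0.94), Fam92a (r = 0.93) and Rps19-ps4 (r = 0.92), a pseudogene whose reads can belong to its parent gene. Plasmacytoid dendritic cell markers were low, with a summed TPM of 7.01 or less over Siglech, Ccr9, Cox6a2 and Klk1 in every library. With the set removed, the median r with 10 neutrophil markers was 0.83 for Ly6c2 and 0.84 for Plac8. With 12 further classical monocyte genes it was 0.35 and 0.44. Without removal these medians were 0.70 and 0.60 against 0.29 and 0.39. Other lists were also near with the set removed. Fibroblast markers had medians of 0.31 and 0.69 (0.15 and 0.46 without removal). Endothelial markers had 0.22 and 0.53 (-0.20 and -0.23), and T cell markers 0.43 and 0.46 (0.02 and -0.12). All these medians include BF10 replicate 3, the tumor highest in Ly6c2, Plac8 and the neutrophil sum. List medians without it were not computed. The parts of these cell types in the 2 levels were not tested.

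Chil3 encodes Ym1, a chitinase-like lectin without chitinase activity. It measured 2.30, 1.41 and 4.90 TPM in control IgG tumors, 1.13, 4.18 and 3.51 under IL-10-Fc and 2.08, 1.33 and 4.62 under aCSF1R. Under BF10 it measured 41.6, 4.09 and 2.13 TPM. A single tumor, BF10 replicate 3, therefore set the BF10 mean of 15.9 ± 22.2 TPM, and the other 11 tumors lay between 1.13 and 4.90. The log2 difference between BF10 and control IgG was 1.28 (SE 0.84, limma adjusted p 0.788) and dropped to 0.14 without that tumor.

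Neutrophil granule genes were high in the same tumor. The summed TPM of 10 neutrophil markers (Ly6g, S100a8, S100a9, Mmp8, Ltf, Camp, Ngp, Retnlg, Csf3r and Cxcr2) was 19273 in BF10 replicate 3 and between 447 and 3409 in the others. Camp, the cathelicidin of neutrophil granules, was 531 TPM there and from 1.72 to 23.8 TPM elsewhere. Chil3 was most like Camp (r = 0.98 over 12 tumors, 0.88 over the 11 others), Elane, the neutrophil elastase (r = 0.97 and 0.87), and Serpinb1a (r = 0.97 and 0.86). None of the 10 markers passed in any comparison. Chil1, a chitinase-like paralog that shares no 75-base window with Chil3, followed the same pattern with 56.8 TPM in BF10 replicate 3 and 3.18 to 11.7 TPM elsewhere, while Chil4, which shares windows with Chil3, did not exceed 0.0543 TPM and Chia1 was listed at 0. Whether the Chil3 in this tumor came from monocytes or neutrophils was not tested.

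Vcan encodes versican, a large chondroitin sulfate proteoglycan of the matrix that classical monocytes also produce. It measured 17.8, 16.8 and 6.95 TPM in control IgG tumors, 20.9, 26.1 and 25.3 under IL-10-Fc, 24.2, 17.0 and 8.13 under aCSF1R and 34.6, 16.4 and 13.2 under BF10. All 3 IL-10-Fc tumors lay above all 3 control tumors, and the remaining pairs of groups overlapped. Means were 24.1 ± 2.79 TPM for IL-10-Fc, 21.4 ± 11.5 for BF10, 16.4 ± 8.03 for aCSF1R and 13.8 ± 5.98 for control IgG (SD, n = 3 each). Vcan was 0.85 higher in IL-10-Fc than in control IgG on the log2 scale (SE 0.48, limma adjusted p 0.738), 0.45 higher without control IgG replicate 7 and 0.68 higher with the library set as a term, where 0.0258% of all genes passed and Vcan did not. Since 6.53% of all genes did not overlap between these groups, 1 of 7 members in that state is a small count.

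The genes most like Vcan were Col3a1, a fibrillar collagen (r = 0.97, 0.96 with the set removed), Bcat1 (r = 0.97) and Clec11a (r = 0.97), a growth factor of bone marrow stroma. Col3a1 itself ranged from 438 TPM in control IgG replicate 7, where Vcan was also lowest, to 3627 TPM in BF10 replicate 3, where Vcan was highest. The summed TPM of 8 fibroblast markers ranged from 1395 to 10233, and none of them passed in any comparison. The r of Vcan with these 8 ran from 0.17 to 0.97, with a median of 0.59 (0.87 with the set removed). With 8 endothelial markers it ran from 0.40 to 0.84, with a median of 0.75 (0.78 with the set removed). The parts of fibroblasts and endothelium in the Vcan level were not tested.

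**Figure D3:**
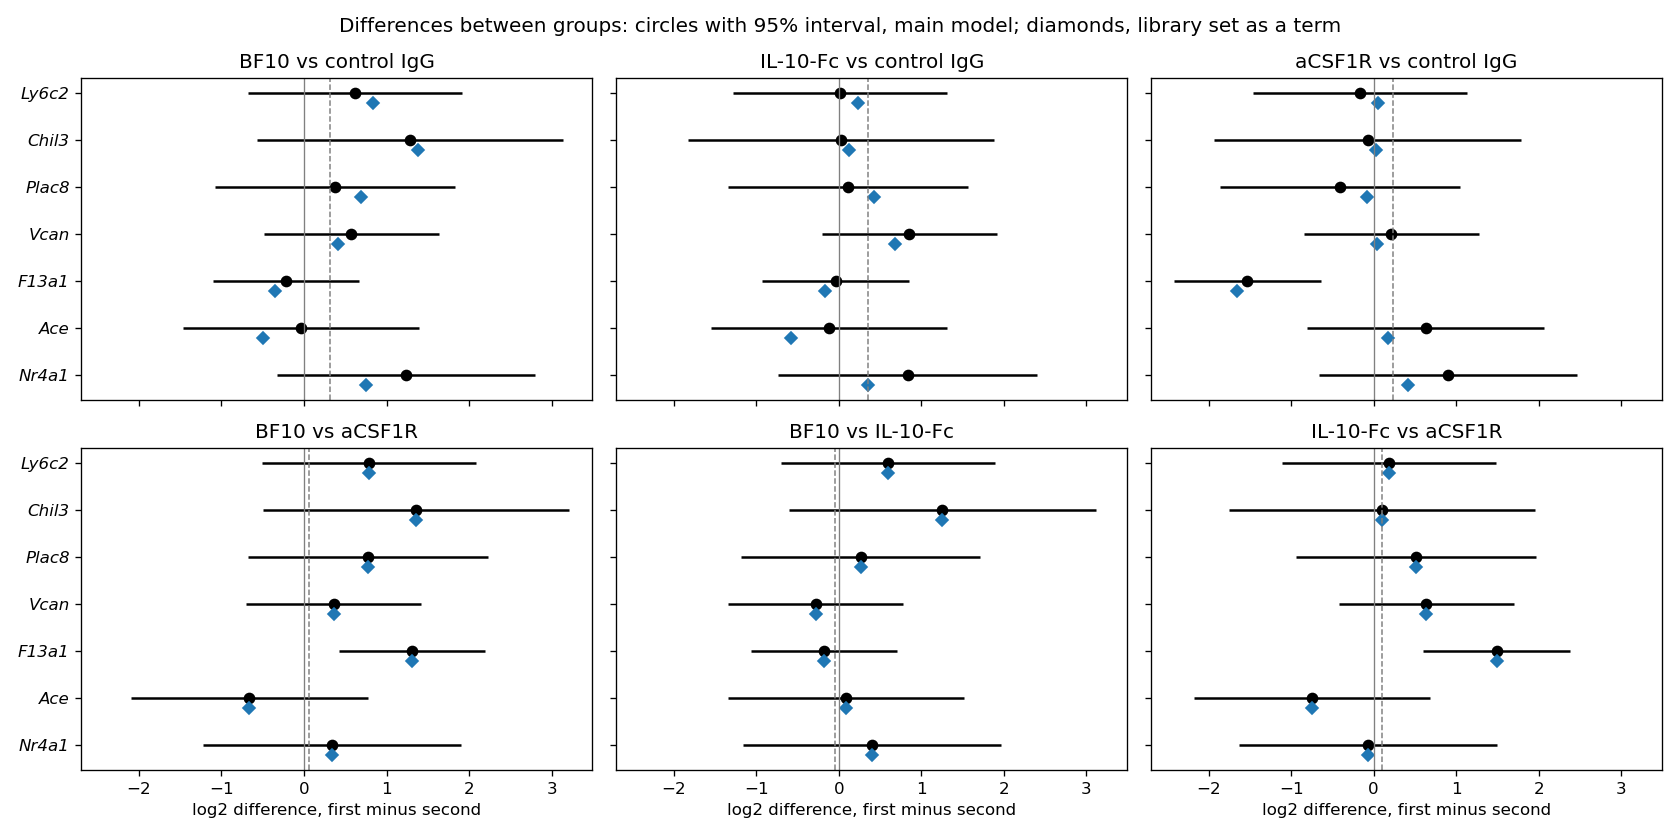
Log2(TPM + 1) differences of the 7 monocyte genes in the 6 group comparisons, first minus second named group, as circles with 95% intervals, and as diamonds with the library set as a term; the solid line is 0 and the dashed line the median of all genes tested. The interval excludes 0 only for F13a1 in the 3 comparisons with aCSF1R, and the diamonds of Ace and Nr4a1 lie to the left of their circles in the comparisons with control IgG.

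Ace encodes angiotensin-converting enzyme, a peptidase of endothelium and of nonclassical monocytes. It measured 23.5, 91.1 and 43.6 TPM in control IgG tumors, 55.2, 57.2 and 23.0 under IL-10-Fc, 97.5, 126 and 28.7 under aCSF1R and 39.0, 29.3 and 76.3 under BF10. In each group the higher-sum libraries held the lowest values, and over all groups they ranged from 23.0 to 43.6 against 39.0 to 126 TPM in lower-sum libraries. With treatment held constant, 59.2% of all genes passed between the sets, with a median log2 difference of -0.68. Ace was then -1.38 in higher-sum relative to lower-sum libraries (log2, SE 0.22, limma adjusted p 0.000235), 2.60-fold lower. The group means of 84.1 ± 50.02 TPM in aCSF1R, 52.7 ± 34.7 in control IgG, 48.2 ± 24.8 under BF10 and 45.1 ± 19.2 for IL-10-Fc (SD, n = 3 each) did not differ beyond this spread.

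With the library set as a term, Ace was -0.66 in BF10 relative to aCSF1R (limma adjusted p 0.449) and -0.75 in IL-10-Fc relative to aCSF1R (limma adjusted p 0.421), neither past the threshold. Its level followed Zfp202 (r = 0.98, 0.93 with the set removed), Nhs (r = 0.97, 0.91) and Cyb561 (r = 0.97, 0.90). Cyb561, which encodes a cytochrome of secretory vesicles, is a neighbour of Ace, at chr11:105933702-105953336 on the opposite strand and 14609 bases away. With the set removed, Ace ran opposite to the 10 neutrophil markers, with r from -0.75 to -0.62, and also to 8 endothelial markers, with r from -0.71 to -0.03. This direction depended on that removal, since without it the r of Ace ran from -0.59 to 0.47 with the neutrophil markers and from -0.70 to 0.66, with a median of 0.56, with the endothelial markers. It was not particular to these lists. With the set removed, r ran from -0.66 to -0.35 with macrophage, -0.73 to -0.13 with fibroblast and -0.43 to -0.01 with T cell markers. The further classical and nonclassical monocyte genes had medians of -0.49 and -0.45, and of -0.22 and 0.11 without removal. None of the endothelial, T cell or epithelial markers checked passed in any comparison, and the epithelial markers Krt8, Krt18, Epcam and Cdh1, expected of a carcinoma, summed to between 661 and 2275 TPM in every tumor. The r of Ace with these 4 epithelial markers was positive both ways, from 0.63 to 0.85 and, with the set removed, from 0.19 to 0.43. The parts of these cell types in the Ace level were not tested.

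Nr4a1 encodes the orphan nuclear receptor Nur77, which nonclassical monocytes need for their development and which is also an immediate early gene, induced within a short time of stimulation. One annotated start lies inside the gene, and the 250 bases before it are shown because Nr4a1 is itself an immediate early gene. They come from RefSeq, chr15:101266596-101266845 of GRCm38.p6 on the plus strand, and capitals mark TGCGTCA, a motif like those bound by CREB and AP-1 family factors.
Nr4a1: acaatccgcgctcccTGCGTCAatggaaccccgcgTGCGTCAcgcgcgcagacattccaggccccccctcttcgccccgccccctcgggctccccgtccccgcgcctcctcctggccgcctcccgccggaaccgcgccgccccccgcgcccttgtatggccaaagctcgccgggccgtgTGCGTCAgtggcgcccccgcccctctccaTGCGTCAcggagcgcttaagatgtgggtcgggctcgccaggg
The motif, searched on both strands, occurred 4 times, starting 235, 215, 71 and 42 bases before the start. Of 32851 promoter windows of the same length, 1.75% held it at least once, and the Nr4a1 window shown was the only one that held it 4 times or more. It was absent from the windows of the other 6 members. A second motif that was searched, GAGGAAGT, was absent from the Nr4a1 window. It occurred in the Ly6c2 windows and in 2.44% of all windows.

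Nr4a1 measured 4.13, 12.8 and 6.14 TPM in control IgG tumors, 13, 19.3 and 9.02 under IL-10-Fc, 25.1, 21.9 and 4.45 under aCSF1R and 41.8, 7.60 and 16.9 under BF10. The library sets did not overlap. Higher-sum libraries ran from 4.13 to 9.02 TPM and lower-sum libraries from 12.8 to 41.8 TPM. With treatment held constant the log2 difference was -1.45 (SE 0.27, limma adjusted p 0.000570), 2.73-fold lower in higher-sum libraries. Of all genes, 59.2% passed between the sets, with a median log2 difference of -0.68. The share of all genes whose sets did not overlap was not counted. By group, Nr4a1 means were 7.67 ± 4.51 TPM in control IgG, 13.8 ± 5.20 for IL-10-Fc, 17.2 ± 11.1 for aCSF1R and 22.1 ± 17.7 for BF10 (SD, n = 3 each). Control IgG had the lowest mean and also the most higher-sum libraries.

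The log2 difference of Nr4a1 between BF10 and control IgG was 1.24 (95% interval -0.33 to 2.80, limma adjusted p 0.788). It was 0.64 without BF10 replicate 3 and became 0.75 (SE 0.37, limma adjusted p 0.993) with the library set as a term, where 0.00645% of all genes passed. The genes most like Nr4a1 were Lta4h, which makes leukotriene B4 (r = 0.98, 0.94 with the set removed), Gstm1 (r = 0.98, 0.94) and Steap3 (r = 0.97, 0.92). Among 12 further NR4A and immediate early genes, the r with Nr4a1 lay between 0.59 and 0.96, and between 0.13 and 0.87 with the set removed. The closest of them was Egr1, a zinc finger factor (r = 0.96, 0.87 with the set removed), and Nr4a3 was the least close after removal of the set (r = 0.13). This likeness was not particular to these 12 genes. With the set removed their median r was 0.53, against 0.66 for the neutrophil, 0.64 for the fibroblast and 0.59 for the endothelial markers. The other lists had lower medians. Without removal the medians were 0.84, 0.52, 0.37 and 0.88 in that order. The epithelial, T cell and further nonclassical monocyte lists then had medians of 0.76, 0.69 and 0.56.

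None of these 12 genes passed in any comparison. All 12 had a positive log2 difference in BF10 relative to control IgG, with a median of 0.74 against 0.32 over all genes tested and 0.47 against 0.07 with the library set as a term. The other treatments were on the same side of control IgG, with 11 of 12 positive and a median of 0.68 against 0.35 under IL-10-Fc, and 10 of 12 positive and a median of 0.31 against 0.24 under aCSF1R. Junb, the most abundant of them, averaged 310 ± 11.5 TPM in control IgG and 366 ± 46.2 TPM in BF10, and Ier2 averaged 55.9 ± 19.1 and 85.8 ± 15.6 TPM (SD, n = 3 each). Their common part in the Nr4a1 level was not tested.

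**Figure D4:**
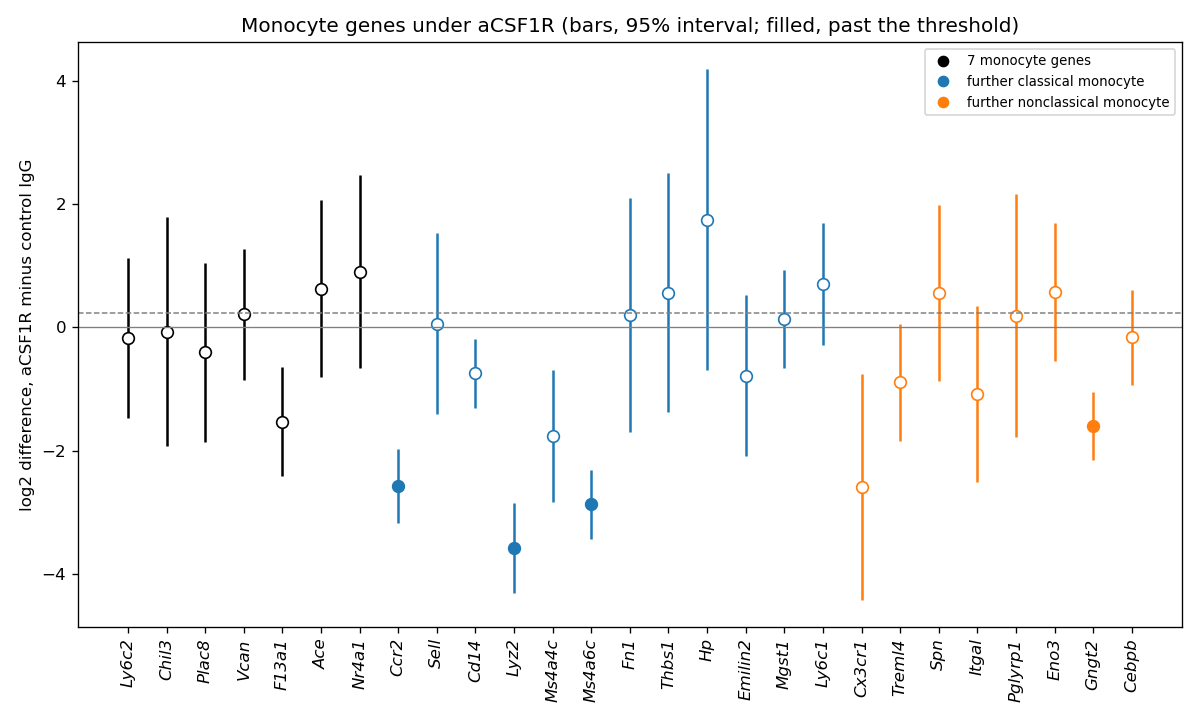
Log2(TPM + 1) difference of aCSF1R minus control IgG for the 7 monocyte genes and 20 further classical and nonclassical monocyte genes, with 95% intervals; filled points passed the threshold and the dashed line is the median of all genes, 0.24. Ccr2, Lyz2, Ms4a6c and Gngt2 passed, all lower, and none of the 7 members did.

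Other monocyte genes put these values in context. Of 12 further classical monocyte genes, all tested, Ccr2, Lyz2 and Ms4a6c fell in aCSF1R relative to control IgG and the other 9 did not pass. The 12 include Ly6c1, which endothelial cells express. Of all genes, 0.568% passed in this comparison. With the library set as a term Ms4a4c passed as lower too, where 2.01% of all genes passed. Ccr2, the receptor that draws classical monocytes into tissue, measured 88.2, 56.9 and 72.2 TPM in control IgG tumors and 13.8, 9.23 and 11.0 TPM in aCSF1R tumors. These groups lay far apart, with a log2 difference of -2.57 (SE 0.27, limma adjusted p 0.00137), 5.93-fold lower. Lyz2, the lysozyme of monocytes, macrophages and neutrophils, fell from 2460 ± 735 to 203 ± 44.6 TPM (SD, n = 3 each, limma adjusted p 0.000641). Fn1 and Mgst1, with Lyz2 and Ly6c1 the most abundant of this list, had log2 differences of 0.20 and 0.13.

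The same 3 genes were higher in BF10 and in IL-10-Fc than in aCSF1R, with Ms4a4c beside them in BF10. In these comparisons 0.735% and 0.542% of all genes passed. With the library set as a term Ms4a4c and Emilin2 also passed in both, and Cd14 in BF10, against 2.82% and 2.13% of all genes. None of the 12 passed in BF10 or IL-10-Fc relative to control IgG or in BF10 relative to IL-10-Fc. The medians of the 12 log2 differences were -0.34 for aCSF1R, 0.43 for BF10 and 0.11 for IL-10-Fc, each relative to control IgG, where all genes had medians of 0.24, 0.32 and 0.35. The 7 members had medians of -0.07, 0.57 and 0.03. Ccr2, with a log2 difference of -2.57, and Ly6c2, with -0.17, were thus apart in the same tumors, although the r between them was 0.36 over the 12.

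Of 10 further nonclassical monocyte genes, 8 were tested and Cd300e and Adgre4 were too low. Gngt2, a G protein subunit, fell from 38.2 ± 4.79 TPM in control IgG to 11.96 ± 2.07 TPM in aCSF1R (SD, n = 3 each), a log2 difference of -1.60 (limma adjusted p 0.0140), and was the only one of the 8 to pass without the library set as a term. Cx3cr1, the fractalkine receptor of nonclassical monocytes and of macrophages, averaged 10.9 ± 12.8 TPM in control IgG and 0.383 ± 0.286 TPM in aCSF1R (SD, n = 3 each). It did not pass in the main model (log2 -2.58, limma adjusted p 0.605) and passed with the library set as a term (log2 -3.17, limma adjusted p 0.00172). Itgal, the alpha chain of the integrin LFA-1, likewise passed only with the term (log2 -1.53, limma adjusted p 0.0212, against -1.08 and 0.893 without it). Cebpb, Eno3 and Spn, the other abundant genes of this list, had log2 differences between -0.16 and 0.58 in the same comparison. Ace and Nr4a1 were on the positive side there, at 0.63 and 0.90, with intervals that include 0, and stood at 0.17 and 0.42 with the library set as a term.

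Across the remaining comparisons, BF10 versus control IgG and BF10 versus IL-10-Fc held no member whose groups did not overlap, beside 3.53% and 2.13% of all genes. With the library set as a term no gene passed in BF10 versus IL-10-Fc (0%), where 42 genes had an unadjusted p below 0.05 in the model without it. BF10 and IL-10-Fc differed by 0.60 for Ly6c2 (log2, 95% interval -0.70 to 1.89, falling to 0.10 without BF10 replicate 3 and to 0.27 without IL-10-Fc replicate 2), by -0.18 for F13a1 (95% interval -1.06 to 0.71) and by 0.40 for Nr4a1 (95% interval -1.16 to 1.97), all intervals wide enough to hold differences of more than 1.5-fold in at least 1 direction. BF10 and aCSF1R, which both contain a CSF1R-blocking antibody, had F13a1 means of 30.5 and 10.6 TPM, and the other 6 members overlapped between them.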

How the data were processed

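RNA from 12 whole tumors was sequenced from stranded mRNA libraries. Per the submitters' processing notes, STAR 2.7.5a, RSEM 1.3.3 and DESeq2 1.28.0 were used with mm10/GRCm38, with no role given for each. The authors deposited FPKM values per gene (2 decimals), with no counts. The study's methods state the reads made per sample, but the counts behind each value, and so their counting error, are not known from these files. Tables of the authors' own group comparisons (fold changes and p-values) were not used.

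FPKM values were divided by each library's sum and multiplied to a common total of 1000000 (TPM). Genes with TPM of at least 1 in at least 3 libraries were tested as log2(TPM + 1) with a pseudocount of 1, which understates changes of low genes. limma 3.58.1 (R 4.3.3) fitted 1 mean per group over all 12 libraries with 8 residual degrees of freedom, a trended prior and Benjamini-Hochberg adjustment over all 15504 genes. The script was tested on simulated data. Calls required an adjusted p below 0.05 and 1.5-fold. The boundary between library sets was an FPKM sum of 700000. The members and gene lists were chosen with earlier results of these data known. Of each list, values are named for the 4 most abundant genes or for genes that passed or are set against a member, some of them chosen after their values were seen (Ccr2, Cx3cr1, Itgal, Camp, Egr1, Nr4a3 and Gp9). Likeness is the Pearson r of log2(TPM + 1) over 12 libraries, given with no p. Abca9, Rgs18, Nhs and Rps19-ps4 averaged 1.29, 1.38, 1.71 and 0.745 TPM over the 12 libraries. These means are close to the filter's 1 TPM, so their r is less certain. Promoter and transcript sequences came from RefSeq (all 7 members had an entry, 11 windows in all) and GENCODE. Alternatives were FPKM without rescaling, median-of-ratios scaling, a pseudocount of 0.1, no filter, the library set as a term, lower-sum libraries only, 2-group fits, a replicate block and each library left out.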

Additional observations from a re-analysis of the deposited data

How the results depend on the processing

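Changing 1 choice at a time, each library left out included, no member passed in any of the 6 comparisons except that with the library set as a term 1 member (F13a1) passed in aCSF1R versus control IgG instead of 0. F13a1 also passed in some fits that combined this term with a left-out library, given below. That term changes the model only, and the cause was not tested. Of 42 single differences (7 genes in 6 comparisons), 21 kept their sign under every alternative of the processing and 21 did not, and none of those 21 had passed. The cause of these changes of sign was not tested. The following log2 differences changed sign. On FPKM without rescaling, IL-10-Fc versus control IgG gave Ly6c2 -0.20, Chil3 -0.13 and Plac8 -0.11. With median-of-ratios scaling it gave -0.42, -0.32 and -0.33, and the same scaling gave Plac8 -0.00513 in BF10 versus control IgG, Vcan -0.013 in aCSF1R versus control IgG, and Ly6c2 -0.021 and Chil3 -0.10 in IL-10-Fc versus aCSF1R. In aCSF1R versus control IgG, the library set as a term gave Ly6c2 0.049 and Chil3 0.027, and the 7 lower-sum libraries alone gave Ly6c2 0.53, Chil3 0.15 and Plac8 0.45, with Ace at -0.040 in BF10 versus IL-10-Fc.

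Leaving out each library in turn changed the sign of further differences, given here as ranges. In BF10 versus control IgG, Plac8 ran from -0.21 to 0.86, F13a1 from -0.64 to 0.037 and Ace from -0.50 to 0.46. In IL-10-Fc versus control IgG, Ly6c2 ran from -0.53 to 0.40, Chil3 from -0.26 to 0.42, Plac8 from -0.47 to 0.69, F13a1 from -0.36 to 0.17 and Ace from -0.58 to 0.37. In aCSF1R versus control IgG, Ly6c2 ran from -0.72 to 0.22, Chil3 from -0.43 to 0.28 and Vcan from -0.19 to 0.62. In BF10 versus aCSF1R, Vcan ran from -0.045 to 0.69 and Nr4a1 from -0.38 to 0.90. In BF10 versus IL-10-Fc, Plac8 ran from -0.32 to 0.75, F13a1 from -0.61 to 0.076, Ace from -0.33 to 0.38 and Nr4a1 from -0.19 to 0.97. In IL-10-Fc versus aCSF1R, Ly6c2 ran from -0.065 to 0.59, Chil3 from -0.18 to 0.50 and Nr4a1 from -0.79 to 0.34. F13a1 kept its direction in all 3 comparisons with aCSF1R, from -1.85 to -1.32 against control IgG. With the library set as a term and each library left out, chosen after seeing the data, F13a1 passed in 5 of 12 fits against control IgG, in 3 of 12 for IL-10-Fc versus aCSF1R and in 1 of 12 for BF10 versus aCSF1R.

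Over all genes, the 88 calls in aCSF1R versus control IgG became 312 with the set as a term, 135 with median-of-ratios scaling, 34 in lower-sum libraries, 4 when fitted on those 2 groups alone, 55 without aCSF1R replicate 6 and 58 without control IgG replicate 4. The 114 calls in BF10 versus aCSF1R became 437 with the term, 0 on 2 groups, 54 and 72 without BF10 replicates 3 and 7, and 61 without aCSF1R replicate 6. The 84 in IL-10-Fc versus aCSF1R became 330 with the term, 12 on 2 groups, 25 without aCSF1R replicate 6, and 32, 24 and 28 without IL-10-Fc replicates 2, 4 and 7. The other 3 comparisons held between 0 and 4 calls under every alternative. In a fit where a left-out library or the lower-sum restriction leaves a group with 1 tumor, that tumor is assumed to vary like the other groups.

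Tumors with the same replicate number in the labels did not deviate together (r from -0.66 to 0.42 over 7 pairs), so the numbers were not taken to pair them. A replicate block by number left 0 members called in every comparison, gave 86 calls over all genes in aCSF1R versus control IgG and turned Vcan to -0.23 in BF10 versus aCSF1R. The files hold no counts and each group holds 3 tumors. The 95% intervals of the member differences spanned between 1.77 and 3.71 on the log2 scale, which limits what could be detected.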
